A study of Mus musculus with 8 samples.

Results

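MiR-10 and miR-196 are microRNA families encoded within the Hox gene clusters. Examined here were 6 of their mature forms: mmu-miR-10a-5p, mmu-miR-10a-3p, mmu-miR-10b-5p, mmu-miR-10b-3p, mmu-miR-196a-5p and mmu-miR-196b-5p (mmu, the mouse prefix, is left out from here on). They were picked by name, as the non-control rows of the array files whose miRNA name matched the list exactly. They account for 6 of the 1881 mouse miRNAs on the array, 18 of its 4415 probes and 180 of its 56430 non-control spots. The levels come from 8 single-colour Agilent arrays hybridised with Cy3-labelled total RNA (100 ng) from mouse kidney (30 mg of tissue), 4 per group. The LPS group, a model of septic acute kidney injury, was given 10 µg of lipopolysaccharide (LPS, from the envelope of Gram-negative bacteria) per g of mouse by intraperitoneal injection. The sham group was injected with normal saline, and 24 h separated injection and sampling in both. Strain, sex and age are not given in the labels, which number the samples (LPS replicates 6, 10, 11 and 12 and sham replicates 5, 6, 7 and 8) without stating whether each is a separate mouse. The p-values therefore reflect only how much these samples vary, which may be technical.

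A microRNA is cut from a hairpin precursor whose 2 arms give the 5p and 3p mature strands. The strand held by Argonaute, usually the more abundant one, pairs with messenger RNAs through its seed, bases 2 to 8, and lowers their output. The Hox genes are transcription factors that set position along the body axis and stay active in the adult kidney. MiR-196 is known to repress Hox messages, with a near-perfect match in mouse Hoxb8 that leads to cleavage. MiR-10 has been shown in zebrafish to repress hoxb1a and hoxb3a, and in endothelial cells miR-10a is known as a brake on NF-κB signalling.

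The mature sequences show why the a and b forms belong together, and are printed with the seed in capitals (RefSeq, GRCm38.p6, all 6 names matched).
miR-10a-5p: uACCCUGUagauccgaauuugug
miR-10b-5p: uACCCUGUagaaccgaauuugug
miR-10a-3p: cAAAUUCGuaucuaggggaaua
miR-10b-3p: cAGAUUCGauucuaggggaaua
miR-196a-5p: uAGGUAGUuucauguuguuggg
miR-196b-5p: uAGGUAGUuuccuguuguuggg

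MiR-10a-5p and miR-10b-5p share the seed ACCCUGU and differ by 1 base of 23, U12A with miR-10a-5p first and positions counted from the 5′ end. MiR-196a-5p and miR-196b-5p share the seed AGGUAGU and differ by 1 base of 22, A12C with miR-196a-5p first. Both single differences lie outside the seed. The 3p arms of miR-10 differ at 3 positions, A3G, U9A and A10U with miR-10a-3p first, and the first of these is in the seed. No other miRNA on the array with a RefSeq mature sequence (1608 of 1881) carried either 5p seed.

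On GRCm38.p6, miR-10a-5p lies at chr11:96317186-96317208 on the plus strand, within the annotated span of Hoxb3 and 1059 bases from that of Hoxb4. MiR-10b-5p lies at chr2:74726074-74726096 on the plus strand, within the spans of Hoxd3 and Hoxd4. MiR-196a-5p has 2 genes with the same mature sequence. Mir196a-1 is at chr11:96265187-96265208 on the plus strand, 6122 bases from Hoxb9, and Mir196a-2 at chr15:102973365-102973386 on the plus strand, between Hoxc10 (1467 bases) and Hoxc9 (3646 bases). MiR-196b-5p lies at chr6:52230129-52230150 on the minus strand, between Hoxa9 (2759 bases) and Hoxa10 (1047 bases). Exon boundaries were not used here. The array cannot separate the 2 genes of miR-196a-5p.

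How far the array can tell the paralogs apart depends on the probes, short DNA strands complementary to most or all of the miRNA from its 3′ end. One probe per form is shown, written 5′ to 3′, with the bases that face a paralog difference in capitals.
probe of miR-10a-5p: cacaaattcggAtctacaggg
probe of miR-10b-5p: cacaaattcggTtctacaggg
probe of miR-10a-3p: tattcccctagaTAcgaa
probe of miR-10b-3p: tattcccctagaATcgaa
probe of miR-196a-5p: cccaacaacaTgaaactaccta
probe of miR-196b-5p: cccaacaacaGgaaactacc

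Each of the 18 probes matched its own mature sequence without a mismatch. Every 5p probe covered the 1 base that separates its paralogs, and every 3p probe covered 2 of the 3 differing bases, leaving out position 3. Whether a probe also bound its paralog was not tested, and a paralog differs from a 5p probe by that single base.

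Array positions are not in the labels and were read from the names of the scanner output, which put all 8 arrays on 1 slide, LPS arrays in row 2 and sham arrays in row 1. If these positions are right, the effects of row and of LPS cannot be told apart. The arrays detected 342 to 359 miRNAs in LPS kidneys and 336 to 375 in sham kidneys. The signal used to scale each array, its 75th percentile over 551 probes above background on all arrays, spanned 8.95 to 9.07 log2 units in LPS and 8.88 to 8.99 in sham. Of 5 kidney tubule markers, 4 (miR-192-5p, miR-194-5p, miR-204-5p and miR-30a-5p) were detected on all 8 arrays and miR-215-5p on 0. Liver miR-122-5p, brain miR-124-3p and striated muscle miR-133a-3p and miR-206-3p were detected on 0 arrays, whereas miR-9-5p and miR-1a-3p, on the same brain and striated muscle lists, were detected on all 8.

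Levels are given as log2 signals relative to that 75th percentile, after outlier spots were dropped and the probes of a miRNA summed. A level near -4.68 is the floor, the median over arrays of the lowest detected value. Detection was judged by probe, so a miRNA can lie above the floor on an array and still not be detected there. Levels of different miRNAs are not set against each other, because probes differ in brightness at equal amounts of target.

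All 4 forms from the 5p arm (miR-10a-5p, miR-10b-5p, miR-196a-5p and miR-196b-5p) were above background on all 8 arrays. They lay far from the floor, by 8.12 log2 units for miR-10a-5p, 7.77 for miR-10b-5p, 6.42 for miR-196a-5p and 4.95 for miR-196b-5p, averaged over arrays. MiR-10a-3p was also detected on all 8 arrays, 3.04 log2 units above the floor. MiR-10b-3p was detected on 6 of 8 arrays, 3 in each group. It averaged 1.30 log2 units above the floor. It was not tested, because the comparison took a miRNA only if all 4 arrays of LPS or all 4 of sham detected it.

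Of the 5 tested members, 2 fell in LPS kidneys, miR-196a-5p and miR-196b-5p, and 0 rose. Beside these counts, 40.2% of all 338 tested miRNAs passed the same test (limma, Benjamini-Hochberg adjusted p under 0.05), with 25.4% of the 338 lower and 14.8% higher in LPS. Both changes were small, and the miR-10 members did not pass the test. In whole kidney tissue, fewer cells of a type and less miRNA per cell cannot be told apart.

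MiR-196a-5p had log2 signals of 1.71, 1.66, 1.66 and 1.70 on LPS replicates 6, 10, 11 and 12, against 1.81, 1.82, 1.81 and 1.80 on sham replicates 5, 6, 7 and 8. Every LPS array was below every sham array, and the sham arrays were almost identical. The means were 1.68 ± 0.02 in LPS and 1.81 ± 0.01 in sham (SD, n = 4 each). The log2 difference was -0.13 ± 0.04 (SE), a fall to 0.915 of the sham signal, with limma adjusted p = 0.0431.

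MiR-196b-5p, from the Hoxa cluster, had log2 signals of 0.20, 0.24, 0.14 and 0.19 on LPS replicates 6, 10, 11 and 12, against 0.30, 0.41, 0.37 and 0.37 on sham replicates 5, 6, 7 and 8. The groups again did not overlap, with the nearest arrays being LPS replicate 10 and sham replicate 5. The means were 0.19 ± 0.04 in LPS and 0.36 ± 0.04 in sham (SD, n = 4 each). The log2 difference was -0.17 ± 0.05 (SE), to 0.888 of the sham signal, with limma adjusted p = 0.0265. Groups that do not overlap were seen for 37% of all tested miRNAs.

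**Figure D1:**
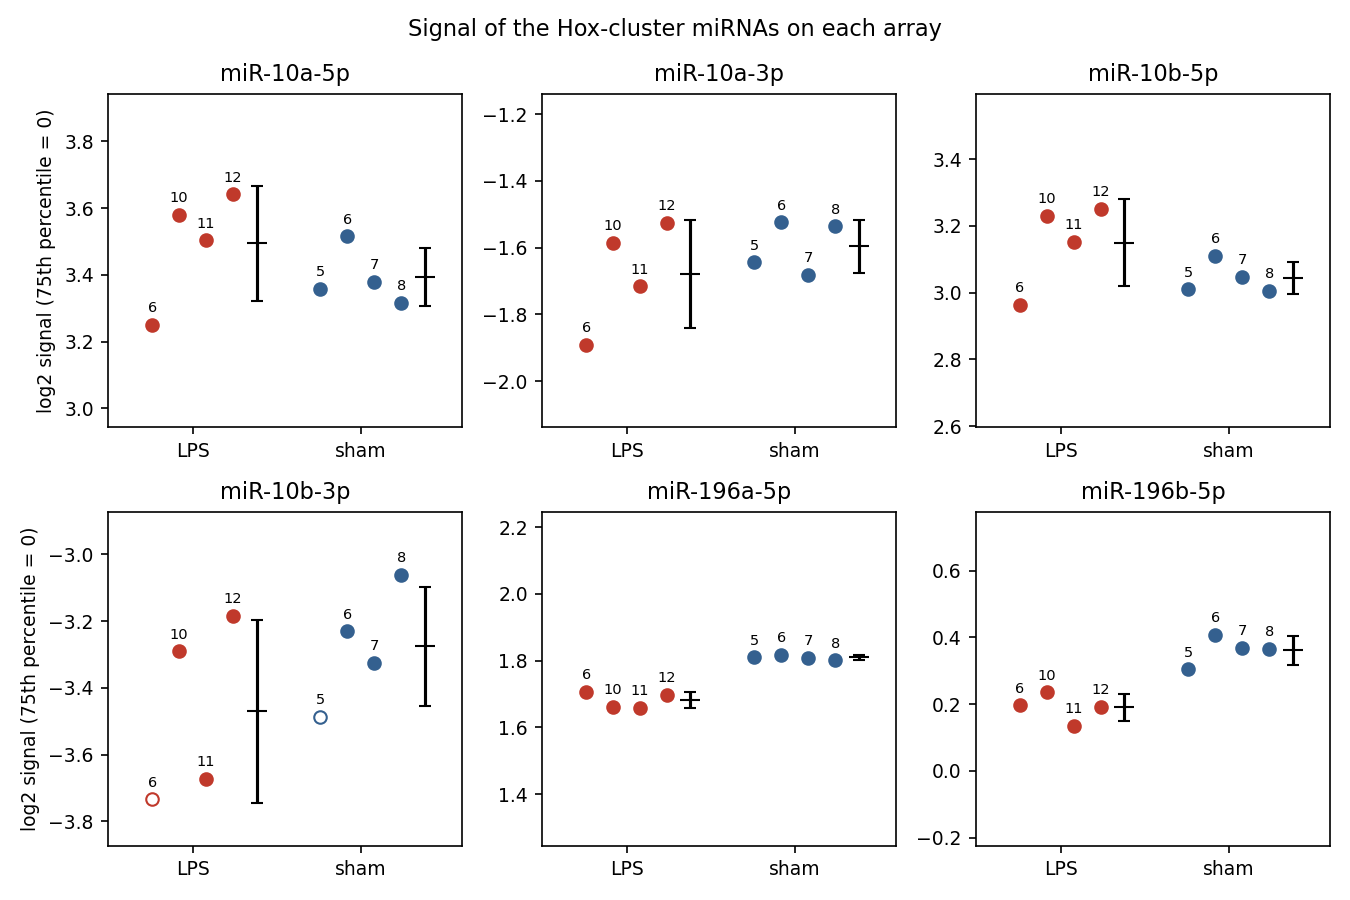
Log2 signal relative to the array's 75th percentile (vertical axis, each panel spanning 1 log2 unit) of the 6 miRNAs on the 4 LPS arrays (red, left) and 4 sham arrays (blue, right), numbered by replicate, with the mean and SD as black bars and open circles for arrays on which the miRNA was not above background. The LPS points of miR-196a-5p (1.66 to 1.71) and miR-196b-5p (0.14 to 0.24) all sit below the sham points, and those of the miR-10 forms overlap them.

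Both miR-196 falls were small against the array as a whole. The median log2 difference of all 338 tested miRNAs was -0.08, which puts miR-196a-5p at -0.05 and miR-196b-5p at -0.09 relative to that median. A larger absolute difference was found for 210 tested miRNAs in the case of miR-196a-5p and for 179 in that of miR-196b-5p. Single probes moved the same way, but they overlap in sequence and are summed to the miRNA's value, so this is not separate evidence. The 4 probes of miR-196a-5p differed by -0.21, -0.10, -0.13 and -0.12 in order of length, and the 2 probes of miR-196b-5p by -0.20 and -0.16. Both calls were lost without scaling (limma adjusted p = 0.540 for miR-196a-5p and 0.308 for miR-196b-5p), with the percentile taken over all probes (0.408 and 0.235), in the deposited ratio table (0.213 and 0.119) and after blocking on slide column (0.0872 and 0.0575). That of miR-196a-5p was also lost with the brightest probe (0.0753), cyclic loess (0.185) and quantile normalization (0.0648). When 1 array was left out, miR-196a-5p kept its call only without LPS replicate 10 (limma adjusted p of 0.0397 to 0.108 over the 8 fits). MiR-196b-5p lost its call without LPS replicate 11 or 12 or sham replicate 6, 7 or 8 (0.0166 to 0.0726 over the 8 fits).

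MiR-10a-5p, the Hoxb member, had log2 signals of 3.25, 3.58, 3.504 and 3.64 on LPS replicates 6, 10, 11 and 12, against 3.36, 3.52, 3.38 and 3.32 on sham replicates 5, 6, 7 and 8. LPS replicates 10 and 12 were above every sham array and LPS replicate 6 was below every one. The means were 3.49 ± 0.17 in LPS and 3.39 ± 0.09 in sham (SD, n = 4 each). The log2 difference of 0.10 ± 0.09 (SE) did not pass the test (limma adjusted p = 0.403), and its 95% interval ran from -0.11 to 0.31, or 0.927 to 1.24 times the sham signal.

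MiR-10b-5p, the Hoxd member, had log2 signals of 2.96, 3.23, 3.15 and 3.25 on LPS replicates 6, 10, 11 and 12, against 3.01, 3.11, 3.05 and 3.01 on sham replicates 5, 6, 7 and 8. LPS replicates 10, 11 and 12 were above every sham array, and LPS replicate 6 below every one. The means were 3.15 ± 0.13 in LPS and 3.04 ± 0.05 in sham (SD, n = 4 each). The log2 difference was 0.11 ± 0.07 (SE, limma adjusted p = 0.269), with a 95% interval of -0.06 to 0.27.

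The size of both differences depended on single LPS arrays. Without LPS replicate 6 they were 0.18 for miR-10a-5p (limma adjusted p = 0.0779) and 0.17 for miR-10b-5p (limma adjusted p = 0.0573), larger and still not past the threshold. Without LPS replicate 12 they were 0.05 for miR-10a-5p (limma adjusted p = 0.695) and 0.07 for miR-10b-5p (limma adjusted p = 0.509). With scaling to labelling spike-ins, RNAs added at labelling, both changed sign to -0.04, as the median of all tested miRNAs moved to -0.23.

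**Figure D2:**
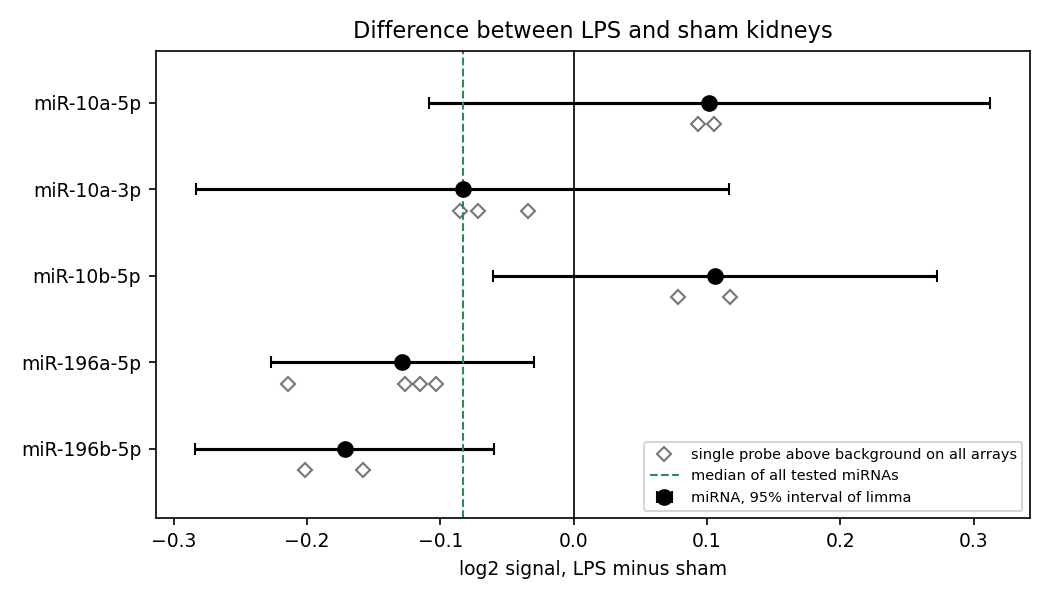
Log2 difference of LPS minus sham (horizontal axis) for the 5 tested miRNAs, as filled circles with the 95% interval of the limma fit, with single probes as open diamonds and the median of all 338 tested miRNAs as a dashed line. The intervals of miR-196a-5p and miR-196b-5p lie below 0, and those of the 3 miR-10 forms include 0.

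The 3p arm of miR-10a is cut from the same hairpin as the 5p arm, shown here with both arms in capitals (Mir10a, chr11:96317165-96317274, plus strand, GRCm38.p6).
Mir10a hairpin: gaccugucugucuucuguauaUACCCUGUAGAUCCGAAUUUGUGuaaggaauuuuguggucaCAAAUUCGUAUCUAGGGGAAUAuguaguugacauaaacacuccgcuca

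MiR-10a-3p had log2 signals of -1.89, -1.59, -1.72 and -1.53 on LPS replicates 6, 10, 11 and 12, against -1.64, -1.52, -1.68 and -1.54 on sham replicates 5, 6, 7 and 8. LPS replicates 6 and 11 were below every sham array and the other two lay within the sham range. The means were -1.68 ± 0.16 in LPS and -1.60 ± 0.08 in sham (SD, n = 4 each). The log2 difference was -0.08 ± 0.09 (SE, limma adjusted p = 0.477, 95% interval -0.28 to 0.12). It was -0.01 without LPS replicate 6, -0.13 without LPS replicate 12 and -0.0067 without scaling, and did not pass in any of these. With scaling to labelling spike-ins it was -0.23 and passed the test (limma adjusted p = 0.0203).

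MiR-10b-3p had log2 signals of -3.73, -3.29, -3.67 and -3.18 on LPS replicates 6, 10, 11 and 12, against -3.49, -3.23, -3.32 and -3.06 on sham replicates 5, 6, 7 and 8. It was not above background on LPS replicate 6 and sham replicate 5, the arrays with the lowest value of each group. The groups overlapped, with means of -3.47 ± 0.27 in LPS and -3.28 ± 0.18 in sham (SD, n = 4 each). Only its longest probe, of 18 bases, was above background on any array, at intensities of 17.4 to 26.1.

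A within-array log2 difference between 2 miRNAs shows whether they responded unequally, and does not depend on how the array is scaled by a single factor. Of the 4 pairs of paralogs or arms, 3 could be tested, and p-values were adjusted over those 3. MiR-10a-5p minus miR-10b-5p was 0.29, 0.35, 0.35 and 0.39 on LPS replicates 6, 10, 11 and 12, against 0.35, 0.41, 0.33 and 0.31 on sham replicates 5, 6, 7 and 8. The groups overlapped, and the response of the paralogs differed by -0.0044 log2 units (2-sided exact permutation p = 0.886, adjusted p = 0.886). The 95% interval, of all shifts that the same test does not reject, ran from -0.12 to 0.08.

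MiR-196a-5p minus miR-196b-5p was 1.51, 1.43, 1.52 and 1.505 on LPS replicates 6, 10, 11 and 12, against 1.51, 1.41, 1.44 and 1.43 on sham replicates 5, 6, 7 and 8. The groups overlapped, and the responses differed by 0.04 log2 units (2-sided exact permutation p = 0.257, adjusted p = 0.386, interval -0.08 to 0.11). Neither family showed a detectable difference in response between the probe signals of its a and b forms. Shifts of those signals outside these intervals were rejected. A probe that also bound its paralog would pull such a difference towards 0, and binding to the paralog was not tested. The intervals therefore do not bound the difference between the miRNAs themselves.

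For the arms of miR-10a the groups separated, with an adjusted p above the threshold. MiR-10a-5p minus miR-10a-3p was 5.14, 5.17, 5.22 and 5.17 on LPS replicates 6, 10, 11 and 12, against 5.002, 5.04, 5.06 and 4.85 on sham replicates 5, 6, 7 and 8. Every LPS array was above every sham array, with means of 5.17 ± 0.03 in LPS and 4.99 ± 0.09 in sham (SD, n = 4 each). The response of the arms differed by 0.18 log2 units, or 1.14-fold (2-sided exact permutation p = 0.0286, the smallest that 4 against 4 arrays allow). After adjustment over the 3 pairs the p was 0.0857, which is above the threshold and the lowest value that 1 separated pair of 3 can reach on its own, so the adjusted test could not call this pair alone. The unadjusted p was larger with the brightest probe (0.18 log2 units, exact permutation p = 0.0857), normexp background correction (0.17, exact permutation p = 0.0857) and the mean of logs over probes (0.15, exact permutation p = 0.0571). With arrays paired by slide column the exact permutation p was 0.125, the smallest that 4 columns allow. MiR-10b-5p minus miR-10b-3p was 6.62 ± 0.18 in LPS and 6.32 ± 0.18 in sham (SD, n = 4 each) and was not tested, since the 3p arm was below background on 2 arrays.

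Within groups, the miR-10 forms varied together on most arrays. The deviations of miR-10a-5p and miR-10b-5p from their group means correlated at 0.986 over the 8 arrays, and those of miR-10a-3p at 0.857 with miR-10a-5p and 0.879 with miR-10b-5p. On sham replicate 8 they parted, with miR-10a-3p at 0.06 log2 units from its group mean, miR-10a-5p at -0.08 and miR-10b-5p at -0.04. These points share the array, its scaling factor and, for the 5p forms, probes that are alike in all but 1 base. LPS replicate 6 was the lowest array of its group for each, at -0.24 log2 units for miR-10a-5p, -0.19 for miR-10b-5p and -0.21 for miR-10a-3p. On the same array the summed signal of 3 red-cell miRNAs (miR-451a, miR-144-3p and miR-486a-5p, the last detected on 2 arrays) was the highest of all, at 3.79 log2 units, against 1.04, 3.27 and 2.60 on LPS replicates 10, 11 and 12 and -0.86 to 1.66 on sham arrays. Its part in the miR-10 values was not tested.

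MiR-196a-5p and miR-196b-5p deviated little, by at most 0.03 and 0.06 log2 units in size, and their deviations correlated at 0.179. The pooled spread of a typical tested miRNA was larger, with a median within-group SD of 0.12. Spots of 1 probe on 1 array had a median coefficient of variation of 2.37% to 2.86% for the miR-10a-5p and miR-10b-5p probes and 2.78% to 5.14% for the miR-196 probes. It was larger for the 3p probes, at 8.84% to 44.1% for miR-10a-3p and 16.9% to 110% for miR-10b-3p. The miR-10a-3p probe at 44.1% was above background on 0 arrays.

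**Figure D3:**
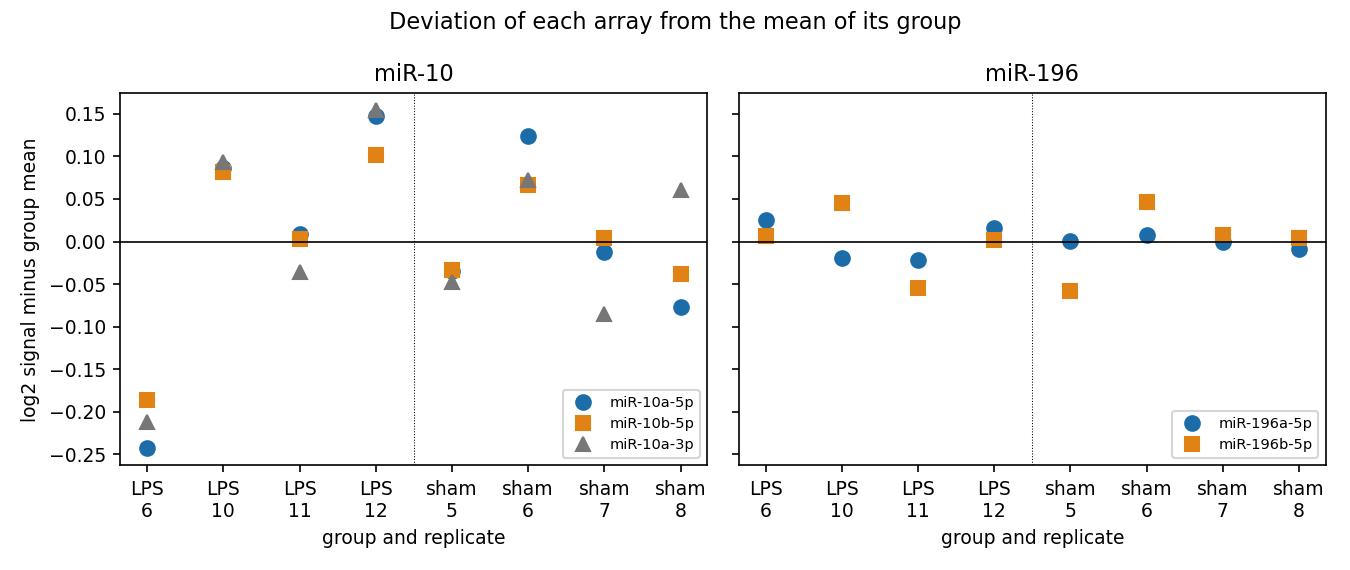
Deviation of each array's log2 signal from the mean of its group (vertical axis) for the 4 LPS arrays (left of the dotted line) and the 4 sham arrays (right), numbered by replicate. The miR-10 forms, in the left panel, lie close together except on sham replicates 7 and 8, and are lowest on LPS replicate 6 (-0.19 to -0.24), and the miR-196 forms, in the right panel, stay within 0.06 of 0.

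Among the 338 tested miRNAs, those whose deviations were most like each member's were listed by the Pearson correlation over 8 arrays, as a description. For miR-10a-5p these were miR-10b-5p (0.986), miR-9-5p (0.968) and miR-9-3p (0.957). For miR-10b-5p they were miR-10a-5p (0.986), miR-30e-3p (0.955) and miR-9-3p (0.939). MiR-10a-3p was most like miR-503-5p (0.942, detected on 6 of 8 arrays), miR-30e-3p (0.924) and miR-98-5p (0.883). The list for miR-196b-5p was miR-450a-5p (0.984), miR-29c-5p (0.963) and miR-103-3p (0.947), and for miR-196a-5p miR-6769b-5p (0.936), miR-6969-5p (0.924) and miR-6931-5p (0.900). These correlations are the highest of 338 and share each array and its scaling factor.

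Other miRNAs of the Hox clusters were not detected. The 3p arms miR-196a-1-3p, miR-196a-2-3p and miR-196b-3p, and both arms of miR-615, which lies in the Hoxc cluster, were above background on 0 of 8 arrays. Each 5p arm of miR-196 was thus measured without its 3p partner, and the arms could be compared for miR-10a alone.

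The miRNAs nearest to miR-10 in sequence are miR-99a, miR-99b and miR-100, which have a related but not identical seed. Their 5p arms were detected on all 8 arrays, and 0 of these 3 passed the test. MiR-99a-5p averaged 1.28 ± 0.09 log2 units in LPS and 1.36 ± 0.06 in sham (SD, n = 4 each), a difference of -0.07 ± 0.06 (SE, limma adjusted p = 0.371). MiR-100-5p differed by -0.05 ± 0.06 (limma adjusted p = 0.551) and miR-99b-5p by 0.03 ± 0.08 (limma adjusted p = 0.785). Their 3p arms were above background on 0 arrays.

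Of 7 tubule miRNAs listed for context, 6 were tested, and 4 fell and 0 rose. Lower calls made up 25.4% of all 338 tested miRNAs. The 4 that fell were miR-192-5p, miR-192-3p, miR-194-5p and miR-204-5p, of which the first 2 are arms of the same hairpin. The median log2 difference of the 6 was -0.24, against -0.08 for all tested miRNAs. MiR-194-5p averaged 2.34 ± 0.13 log2 units in LPS and 2.67 ± 0.05 in sham (SD, n = 4 each), a difference of -0.33 ± 0.07 (SE, limma adjusted p = 0.0107). MiR-30a-5p (-0.11, limma adjusted p = 0.204) and miR-200b-3p (-0.08, limma adjusted p = 0.350), an epithelial miRNA, did not pass. The miR-196 forms and the 4 tubule miRNAs that passed were all called lower in LPS, so their shared direction follows from that selection. A difference between them was not tested.

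The summed signals of cell type markers moved with the groups in part. Beside the counts given here, 14.8% of all 338 tested miRNAs were called higher in LPS and 25.4% lower. Leukocyte markers, all 6 detected on every array, summed to 1.79 to 1.89 log2 units in LPS and 1.18 to 1.64 in sham. Of these 6, 2 were called higher in LPS, miR-155-5p (1.68) and miR-223-3p (0.86). Those that did not pass were miR-142a-3p (0.26), miR-142a-5p (0.13), miR-342-3p (-0.01) and miR-150-5p (-0.22). Tubule markers summed to 5.45 to 5.63 in LPS and 5.63 to 5.74 in sham, with the nearest arrays of the groups almost equal. Of the 4 tubule markers tested, 3 were lower in LPS. The brightest of them, miR-30a-5p, weighs most in the sum and did not pass the test (limma adjusted p = 0.204). Endothelial markers (miR-126a-3p and miR-126a-5p) summed to 4.10 to 4.27 in LPS and 4.13 to 4.23 in sham, and those of smooth muscle and stroma to 2.84 to 3.002 in LPS and 2.76 to 2.95 in sham. Of the 5 smooth muscle and stroma markers, 2 were lower in LPS, miR-145a-5p (-0.44, limma adjusted p = 0.00278) and miR-199a-5p (-0.25, limma adjusted p = 0.0309). The rest did not pass and differed in sign, with miR-199a-3p at 0.16, miR-143-3p at 0.05 and miR-214-3p at -0.12. Of the 3 red-cell miRNAs, 2 were tested and both were higher in LPS, miR-451a (2.43, limma adjusted p = 0.0285) and miR-144-3p (2.46, limma adjusted p = 0.0235). The part of any change in cell makeup in the miR-196 values was not tested.

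**Figure D4:**
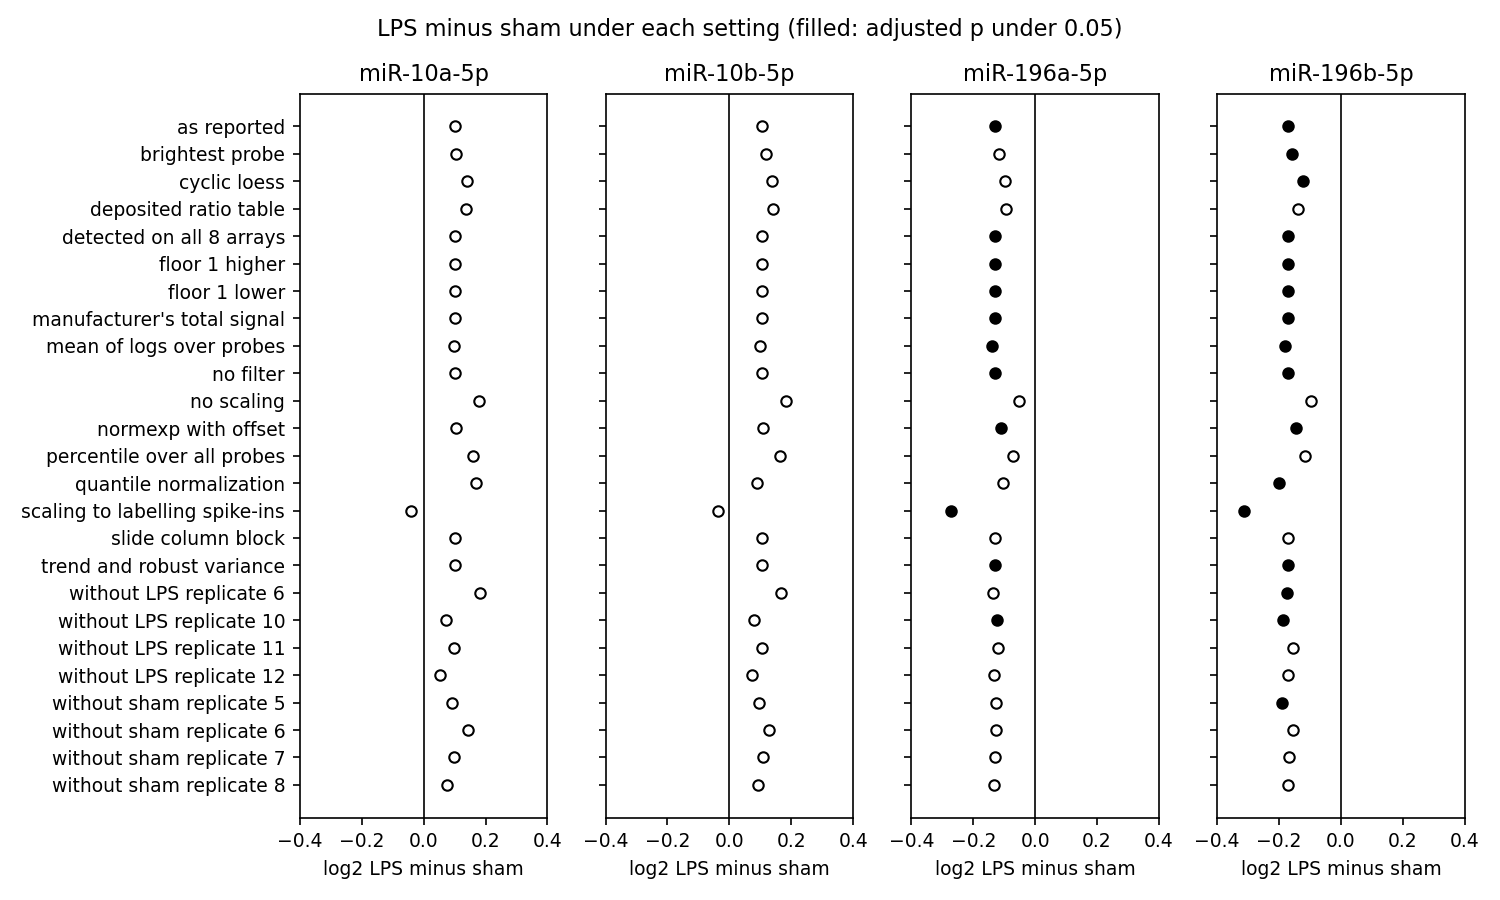
Log2 difference of LPS minus sham (horizontal axis) of the 4 forms from the 5p arm under each of 24 other settings and as reported (top), with filled circles where the limma adjusted p was under 0.05. MiR-196a-5p and miR-196b-5p stay below 0 in every setting, from -0.27 to -0.05 and from -0.31 to -0.10. MiR-10a-5p and miR-10b-5p are above 0 except with scaling to labelling spike-ins (-0.04 for both). Changes of filter, floor, variance model or slide column block leave each difference as reported, so they do not test its sign. Scaling by another single factor shifts the 4 forms by the same amount.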

How the data were processed

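The deposited spot intensities are, per the file headers, Agilent Feature Extraction 12.0.3.1 output, background-subtracted with spatial detrending, on an array design annotated on mm9. They carry no scaling between arrays. The authors' deposited table holds a linear ratio for every miRNA on each array, with array factors not given in the sources used here, and served as an alternative after log2 transformation.

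Spots flagged as outliers were dropped, and each probe took the mean of its other spots. The 551 probes detected on all arrays supplied the 75th percentile by which each array was divided. Probes were summed per miRNA and log2-transformed, with the floor set to the typical (median) lowest detected value of an array. Detection required over 0.5 of the spots of any probe to be well above background. The 338 tested miRNAs were fitted in limma 3.58.1 (R 4.3.3, 2-sided, Benjamini-Hochberg over all 338, threshold 0.05), after a check on simulated data. The differences planted in that check were larger than those of the miR-196 forms, so recovery of differences as small as theirs was not checked. Pairs were compared by exact permutation. No non-control spot was saturated. The number of arrays limits the precision.

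The members, lists and alternatives were chosen with earlier results of these data known. Named are all members, the 3 tested miRNAs most like each member that was detected on all arrays, and the context and marker lists. Normexp correction used an offset of 50.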

Additional observations from a re-analysis of the deposited data

How the results depend on the processing

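There were 24 alternatives, 8 of them with 1 array left out. The miR-196a-5p difference lost the call in 14 of 24: brightest probe (-0.12), cyclic loess (-0.10), deposited ratios (-0.095), no scaling (-0.052), percentile over all probes (-0.072), quantile normalization (-0.10), slide column (-0.13) and 7 arrays left out (-0.14 to -0.12 over all 8). That of miR-196b-5p lost it in 9: deposited ratios (-0.14), no scaling (-0.10), percentile over all probes (-0.12), slide column (-0.17) and 5 arrays left out (-0.19 to -0.15 over all 8). The cause was not tested. Spike-in scaling gave -0.041 for miR-10a-5p and -0.037 for miR-10b-5p, -0.23 (called) for miR-10a-3p and 3 members called. Members called numbered 1 with the brightest probe, cyclic loess or quantile normalization, 0 with deposited ratios, no scaling, percentile over all probes or slide column, and 0 to 2 without 1 array. MiR-10a-5p minus miR-10b-5p changed sign with cyclic loess (0.00096), mean of logs (0.0017), quantile normalization (0.080) and without LPS replicate 6 or sham replicate 6 (-0.020 to 0.015 over all arrays left out). Of all tested miRNAs, 136 were called, 80 with slide column and 85 to 152 without 1 array, with 50 higher (33 to 54) and 86 lower (49 to 106). Lower calls numbered 53 with deposited ratios (46 higher), 49 without scaling (57 higher), 53 with the percentile over all probes (55 higher), 150 with spike-ins (34 higher) and 45 with slide column (35 higher), and with cyclic loess 66 were lower and 65 higher. Blocking on slide column pairs 1 LPS with 1 sham array in each of 4 columns. By replicate number, no paired analysis was possible because the groups share only number 6. Alternatives for miR-10b-3p and for miR-10b-5p minus miR-10b-3p were not run, since neither was tested; signal over background limits both.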
